A study of Homo sapiens with 6 samples.

Results

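The genes described here encode the subunits of the mitochondrial oxidative phosphorylation machinery, in MEC-1 cells with and without an shRNA against UGT2B17. Members were chosen by symbol among probe sets annotated to 1 gene: symbols that start with NDUFA, NDUFB, NDUFC, NDUFS or NDUFV plus a digit, SDHA to SDHD, the prefix UQCR or CYC1, the prefixes COX4 to COX8, and the prefix ATP5. With the brightest probe set kept for each symbol, 82 of the 18404 genes measured were members. They comprised 33 genes of complex I, 3 of complex II, 8 of complex III, 17 of complex IV, 18 of complex V and 3 noncoding transcripts. MEC-1 is an established B cell line from a patient with chronic lymphocytic leukemia. The knockdown group was 3 arrays of cells that received a lentiviral shRNA against UGT2B17, which encodes a glucuronidating enzyme for androgens and other small molecules, and the control group was 3 arrays of cells that received a scrambled lentiviral shRNA. Both groups were grown in the same RPMI medium with serum and without phenol red or antibiotics. The labels name neither the number of targeting constructs nor clones. They do not say whether each array had its own culture, so the replicate spread behind every p-value may be technical.

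Complexes I to IV pass electrons from NADH and succinate through ubiquinone and cytochrome c to oxygen and, with the exception of complex II, pump protons across the inner mitochondrial membrane. Complex V, the ATP synthase, lets the protons back and makes ATP. Most subunits are encoded in the nucleus and imported, while a small core is encoded in mitochondrial DNA, and the complexes are built with the help of dedicated assembly factors. Chronic lymphocytic leukemia cells are known to rely on this route for much of their ATP.

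All values are log2 array signals made by the authors with RMA, differences are knockdown minus scrambled on the log2 scale, and a gene passed where its p from limma, adjusted by Benjamini-Hochberg over all 18404 genes, was under 0.05. UGT2B17 read 3.19, 3.27 and 3.17 on the knockdown arrays, against 3.95, 3.69 and 3.91 on the scrambled arrays, and fell by 0.64 ± 0.08 (SE; adjusted p = 0.00654). Its probe set read far below the median gene, at 7.03, and below the average of the red cell markers, at 4.70 to 4.86, so it lies near background and the size of the knockdown cannot be read from it. Correlations between arrays lay between 0.991 and 0.996. The 5 measured B cell markers averaged 11.1 on every array. Markers of T cells, myeloid cells and red cells averaged at most 5.87 on any array and none passed, and among those of epithelium and connective tissue 1 passed, KRT18. Scrambled replicate 3 lay furthest from its group, by 0.138 log2 units as the root mean square over genes, against 0.0771 to 0.112 for the other arrays. In RNA from whole cultures, less RNA per cell and fewer cells with the RNA cannot be told apart.

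None of the 82 genes passed limma's test with all 6 arrays, where 3.61% of all genes did. At an unadjusted p under 0.05, 14 members were lower in the knockdown and 2 higher, against 9.45% and 8.7% of all genes. The direction was uneven: 67 members, or 81.7%, had a log2 difference below 0 and 15 above, with a median of −0.12. All genes had a median of −0.002, with 50.7% below 0. The genes brighter than the median gene had a median of −0.024, with 56.5% below 0. The members ran from −0.42 for NDUFB6 to 0.27 for ATP5MC2. In 20 members every knockdown array read below every scrambled array, or 24.4% against 13.1% of all genes. In 3 members, or 3.66%, every knockdown array read above every scrambled array, against 11.8% of all genes. Most members were bright, and among the genes brighter than the median gene 19.9% separated the groups lower in the knockdown, 15.2% separated them higher and 14.3% were lower at an unadjusted p under 0.05.

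The median went with 1 control array. Scrambled replicate 3 was the highest of the 6 arrays for 64 of the 82 members, or 78.0%, while it was the highest for 28.9% of all genes and for 42.4% of the genes brighter than the median gene. It read above the mean of the other scrambled arrays for 71 members, by a median of 0.22 log2 units, against 0.01 over all genes and 0.06 over the brighter genes. Of the members, 71 were brighter than the median gene. As the median over members of the deviation from each gene's own mean, the knockdown arrays lay at −0.04, −0.04 and −0.07, and the scrambled arrays at −0.04, 0.00 and 0.19. Scrambled replicate 1 thus lay beside the knockdown arrays, and only scrambled replicate 3 stood clear of the rest. After another quantile normalisation scrambled replicate 3 was the highest array for 56 members, and with arrays centred on their medians for 67. Its median over all probe sets was the lowest, at 6.38 against 6.43 to 6.45 on the other arrays. Centring thus raised it against the others for every gene, so the 67 is no trait of the members alone. The shares of all genes under these settings are not given here. What sets this array apart was not tested.

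**Figure D1:**
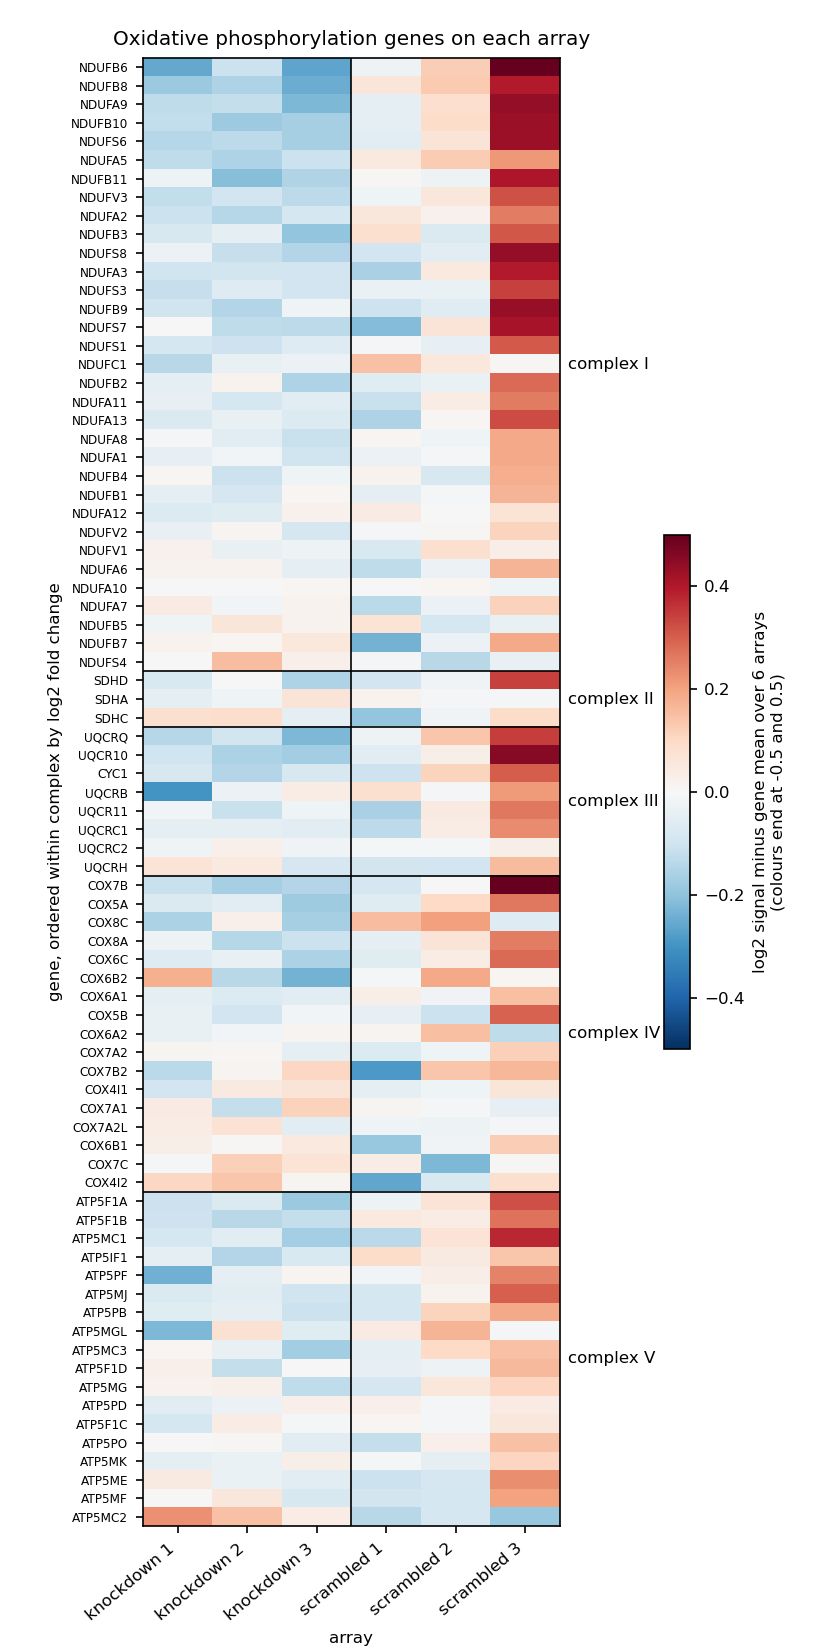
Each row is 1 protein-coding member and each column 1 array. Colour gives the log2 signal minus the gene's mean over the 6 arrays, and rows are ordered within each complex from the lowest to the highest log2 fold change. The red column at the right is scrambled replicate 3, the highest array for 28 of 33 complex I genes, 8 of 8 complex III genes and 16 of 18 complex V genes. In complex IV it was the highest for 9 of 17 genes and in complex II for 2 of 3.

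Without scrambled replicate 3, the median log2 difference of the members was −0.03 and that of all genes −0.0005, with 56 members below 0 and 26 above. NDUFB8 alone fell, or 1.22% of the members, where 4.12% of all genes passed. At an unadjusted p under 0.05, 13 members were lower and 3 higher, against 8.85% and 9.17% of all genes, and 11.8% of the brighter genes were lower. Leaving out an array can only keep or raise the number of genes that separate the groups. Every knockdown array read below both remaining scrambled arrays in 21 members. That is 25.6%, against 17.9% of all genes and 23.6% of the brighter genes. Every knockdown array read above both in 10 members, or 12.2% against 17.4% of all genes and 22.7% of the brighter genes. Those 10 were NDUFA7, NDUFB7, NDUFS4, UQCRH, COX4I2, COX6B1, ATP5MC2, ATP5ME, ATP5MF and the noncoding NDUFV1-DT, and with all 6 arrays only NDUFS4, ATP5MC2 and NDUFV1-DT separated the groups in this way.

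By complex, the median differences over 6 arrays were −0.14 for complex I, −0.01 for complex II, −0.15 for complex III, −0.03 for complex IV and −0.10 for complex V. Without scrambled replicate 3 they were −0.03, −0.01, −0.05, 0.01 and −0.04 in the same order. Of the members, 28 of 33 in complex I were below 0 with 6 arrays and 27 without that array. In complex IV, 11 of 17 were below 0 with 6 arrays and 8 without it. Of all genes 50.7% were below 0 with 6 arrays and 50.2% without it, and of the brighter genes 56.5% and 51.3%. Whether the complexes differ from each other was not tested.

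**Figure D2:**
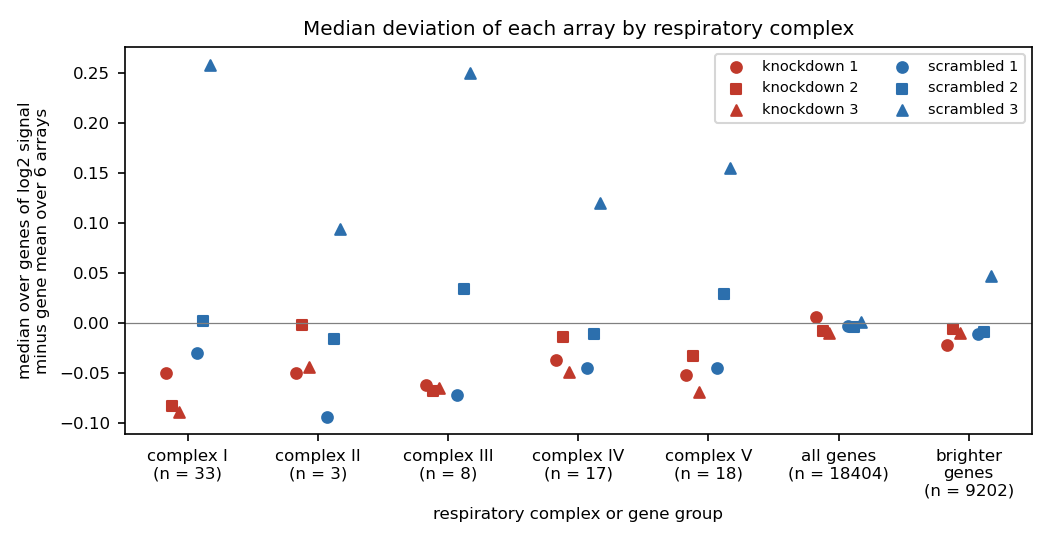
For each respiratory complex, for all genes and for the genes brighter than the median gene, points give the median over genes of the log2 signal minus the gene's mean over the 6 arrays. Knockdown arrays are red and stand left, scrambled arrays are blue, and the marker shape is the replicate number. In complex I the knockdown arrays lie at −0.05, −0.08 and −0.09 and the scrambled arrays at −0.03, 0.00 and 0.26, while all genes lie between −0.01 and 0.01 on every array.

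Complex I, the NADH dehydrogenase, held both members with the smallest p, NDUFB8 and NDUFA5. NDUFB8, an accessory subunit of the membrane arm, read 10.87, 10.90 and 10.81 on the knockdown arrays, against 11.12, 11.19 and 11.45 on the scrambled arrays. The groups did not overlap. NDUFB8 differed by −0.39 ± 0.09 (SE; 95% interval −0.60 to −0.18) with 6 arrays, which did not pass (limma, adjusted p = 0.0544). Without scrambled replicate 3 it fell by 0.29 ± 0.06 (SE), with an adjusted p of 0.0484. This call was lost with arrays centred on their median, with array weights and with the replicate number as a block. It was also lost over all single-symbol or all deposited probe sets and when any further array was left out. The log2 difference lay between −0.46 and −0.29 over the alternatives tried on the 6 arrays.

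Among the other membrane arm subunits of the NDUFB series, 8 of 10 were below 0. NDUFB6 read 7.91, 8.06 and 7.90 on the knockdown arrays, against 8.14, 8.29 and 8.69 on the scrambled arrays. Scrambled replicate 3 stood 0.48 above the mean of the other scrambled arrays, and the difference was −0.42 ± 0.13 (SE; adjusted p = 0.129) with it and −0.26 ± 0.08 (0.126) without it. NDUFB10 read 8.39, 8.33 and 8.35 in the knockdown, against 8.47, 8.60 and 8.94 in scrambled cells, and NDUFB11 also separated the groups. NDUFB7, 1 of the 2 NDUFB genes above 0, read 8.22, 8.22 and 8.26 on the knockdown arrays, against 7.97, 8.18 and 8.39 on the scrambled arrays. Its groups overlapped, with a difference of 0.05 ± 0.10 (SE) that became 0.16 ± 0.08 without scrambled replicate 3.

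In the NDUFA series, which spans both arms, 10 of 12 members were below 0. NDUFA5, an accessory subunit of the matrix arm, read 8.00, 7.97 and 8.02 on the knockdown arrays, against 8.17, 8.25 and 8.34 on the scrambled arrays. The knockdown arrays lay close together and below every scrambled array, and the difference was −0.26 ± 0.07 (SE; adjusted p = 0.0735), or −0.22 ± 0.06 (0.102) without scrambled replicate 3. NDUFA2, another matrix arm subunit, read 9.70, 9.67 and 9.72 in the knockdown, against 9.87, 9.83 and 10.07 in scrambled cells. NDUFA9, which sits where the arms meet, read 10.03, 10.04 and 9.93 in the knockdown, against 10.11, 10.24 and 10.60. Both separated the groups, at −0.23 ± 0.08 for NDUFA2 and −0.31 ± 0.12 (SE) for NDUFA9, and neither passed (adjusted p = 0.164 and 0.199). Without scrambled replicate 3 NDUFA2 differed by −0.15 and NDUFA9 by −0.17. NDUFA10 had the smallest difference of these genes, at 0.01 ± 0.06, and its 6 arrays lay between 8.55 and 8.58. NDUFA4, today named COXFA4 and counted with complex IV, is no member by symbol and differed by −0.14 ± 0.09 (SE; adjusted p = 0.476).

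The catalytic core of complex I carries the flavin and the iron-sulfur clusters. The 6 nuclear core genes measured, NDUFV1, NDUFV2, NDUFS1, NDUFS3, NDUFS7 and NDUFS8, had a median difference of −0.17 with 6 arrays and −0.03 without scrambled replicate 3, and all 6 were below 0 both ways. NDUFS1, which holds iron-sulfur clusters, and NDUFS3, a matrix arm core subunit, separated the groups. They differed by −0.17 and −0.19 with 6 arrays and by −0.06 each without scrambled replicate 3. NDUFS8, which holds iron-sulfur clusters, read 8.49, 8.41 and 8.38 in the knockdown, against 8.43, 8.47 and 8.96 in scrambled cells, where only scrambled replicate 3 stood apart. NDUFS7 read 8.58, 8.45 and 8.45 in the knockdown, against 8.36, 8.64 and 8.99. Of the remaining accessory genes, NDUFS6 and NDUFV3 read below every scrambled array on all knockdown arrays, at −0.29 ± 0.11 for NDUFS6 and −0.24 ± 0.09 (SE) for NDUFV3, or −0.15 and −0.13 without scrambled replicate 3. NDUFC1 did so as well, at −0.14 ± 0.07, and its scrambled replicate 3 was the lowest of the scrambled arrays, at 8.84 against 8.99 and 8.89. NDUFS4, a matrix arm subunit needed for a stable complex, was the complex I gene with the highest difference, at 8.12, 8.27 and 8.14 in the knockdown against 8.11, 7.98 and 8.08 in scrambled cells. Its groups did not overlap, by 0.12 ± 0.07 (SE; adjusted p = 0.431).

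**Figure D3:**
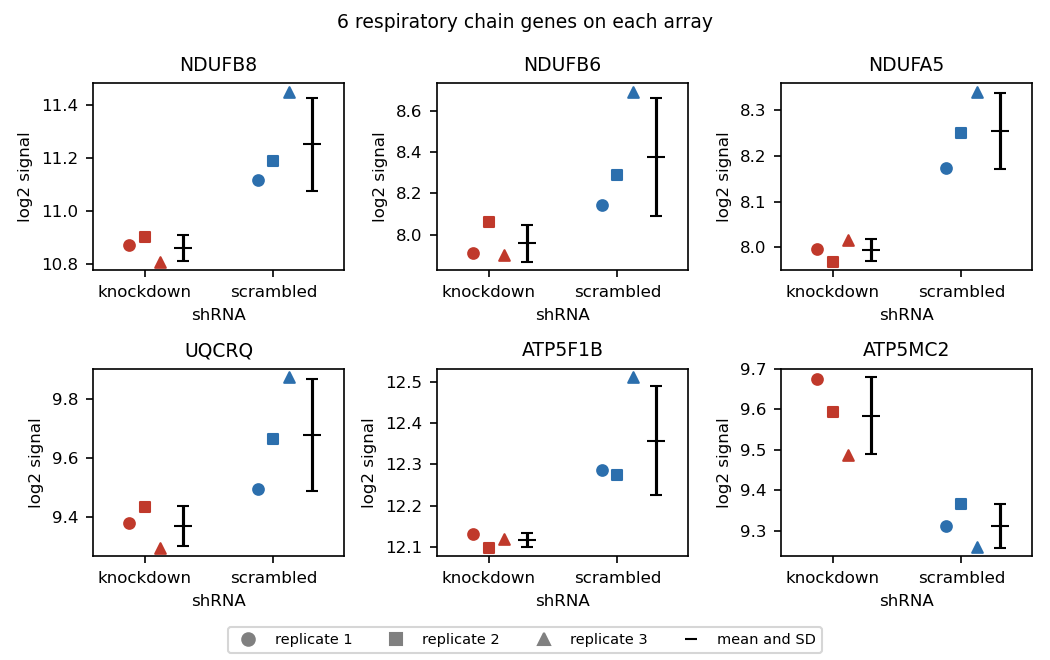
Log2 signal of 6 members on each array, with knockdown arrays in red at the left and scrambled arrays in blue. Marker shape gives the replicate number, black bars give the mean and SD of 3 arrays, and each panel has its own axis, which does not start at 0. NDUFB8, NDUFB6, NDUFA5, UQCRQ and ATP5F1B read lower on every knockdown array than on every scrambled array, and ATP5MC2 read higher.

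Complex II, succinate dehydrogenase, joins the citric acid cycle to the chain, and 3 of its genes were measured. SDHA, the flavoprotein, read 10.61, 10.64 and 10.72 in the knockdown, against 10.68, 10.66 and 10.66 in scrambled cells, a difference of −0.01 ± 0.06 (SE) with a 95% interval of −0.15 to 0.14. SDHA has near-identical pseudogene copies that may share its signal. SDHC, a membrane anchor, read 11.01, 11.02 and 10.89 in the knockdown, against 10.74, 10.91 and 11.03 in scrambled cells, and SDHD, the other anchor, read 10.08, 10.16 and 10.00, against 10.06, 10.14 and 10.50. Both overlapped between groups, at 0.08 ± 0.09 and −0.15 ± 0.11 (SE; adjusted p = 0.689 and 0.529). The kept probe sets of SDHC and SDHD may not read these loci. SDHC lies on chromosome 1 and SDHD on chromosome 11, but the 10 named probe sets with the nearest numbers all belong to genes on chromosome 17 for SDHC and on chromosome 1 for SDHD. The dimmer probe sets of both genes, whose neighbours lie on the gene's own chromosome, gave 0.12 for SDHC and −0.14 for SDHD. The kept probe sets of NDUFV2 and ATP5MK were likewise surrounded by probe sets of genes on another chromosome, and their dimmer ones gave −0.06 and 0.02 against −0.07 and −0.03.

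Complex III, the cytochrome bc1 complex, had scrambled replicate 3 as the highest array for each of its 8 genes. UQCRQ, a small subunit that binds ubiquinone, read 9.38, 9.43 and 9.30 in the knockdown, against 9.50, 9.66 and 9.87 in scrambled cells. The groups did not overlap, and the difference was −0.31 ± 0.10 (SE; adjusted p = 0.134), or −0.21 ± 0.08 (0.196) without scrambled replicate 3. UQCR10, another small subunit, read 10.06, 10.00 and 9.99 in the knockdown, against 10.10, 10.19 and 10.61. Its scrambled replicate 3 stood far above the rest, and the difference was −0.29 ± 0.12 (SE) with that array and −0.13 ± 0.06 without it. UQCRB, a ubiquinone-binding subunit whose probe set was dimmer than the median gene, differed by −0.19 ± 0.10, and CYC1, cytochrome c1, by −0.21 ± 0.10 (SE), with overlapping groups in both. The core proteins were nearer to 0. UQCRC2 read 11.04, 11.08 and 11.04 in the knockdown, against 11.05, 11.05 and 11.09 in scrambled cells, a difference of −0.01 ± 0.06 (SE), and UQCRC1 differed by −0.09 ± 0.09. UQCRH, the acidic hinge protein, has a near-identical copy elsewhere in the genome that may share its signal, and differed by 0.02 ± 0.09.

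Complex IV, cytochrome c oxidase, is built from ubiquitous subunits and from isoforms that replace some of them in particular tissues. The 11 ubiquitous genes had a median difference of −0.10 with 6 arrays and 0.02 without scrambled replicate 3. COX7B read 7.99, 7.94 and 7.96 in the knockdown, against 8.02, 8.11 and 8.61 in scrambled cells. Its difference of −0.28 ± 0.14 (SE; adjusted p = 0.325) was −0.10 ± 0.06 without scrambled replicate 3, which stood 0.54 above the mean of the other scrambled arrays. COX5A, which binds at the matrix face, and COX8A differed by −0.20 ± 0.09 and −0.18 ± 0.09 (SE), with overlapping groups. COX6A1 did not overlap, at 12.55, 12.52 and 12.53 in the knockdown against 12.62, 12.57 and 12.74. COX7C read 9.76, 9.89 and 9.84 in the knockdown, against 9.81, 9.54 and 9.77, and COX4I1, the ubiquitous form of subunit 4, differed by 0.01 ± 0.07 (SE).

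The tissue isoforms of complex IV did not follow scrambled replicate 3. It was the highest array for 1 of these 6 genes and read below the mean of the other scrambled arrays for 4. All but COX6A2 were dimmer than the median gene. COX4I2, the lung and hypoxia form of subunit 4, read 6.46, 6.50 and 6.37 in the knockdown, against 6.10, 6.28 and 6.44 in scrambled cells, a difference of 0.17 ± 0.09 (SE; adjusted p = 0.385), or 0.25 ± 0.08 (0.130) without scrambled replicate 3. COX8C, a testis form, read 5.12, 5.30 and 5.11 in the knockdown, against 5.43, 5.48 and 5.21, a difference of −0.20 ± 0.09 (0.293), or −0.28 ± 0.08 (0.0953) without that array. In both genes the remaining groups no longer overlapped, and in neither did the difference pass. The muscle forms COX6A2 and COX7A1 differed by −0.03 ± 0.08 and 0.03 ± 0.08, and the testis forms COX6B2 and COX7B2 by −0.13 ± 0.11 and −0.01 ± 0.12 (SE).

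**Figure D4:**
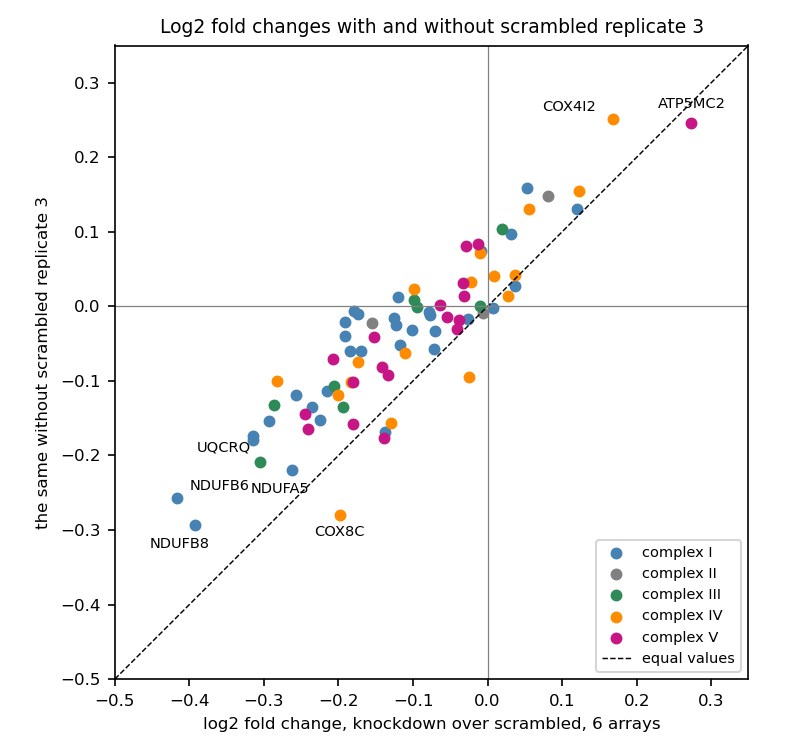
Each point is 1 protein-coding member, with its log2 fold change of knockdown over scrambled on 6 arrays on the horizontal axis and the same without scrambled replicate 3 on the vertical axis. The dashed line marks equal values and colours mark the complexes. Most points to the left of 0 lie above the line, nearer to 0 once that array is left out, while ATP5MC2 keeps 0.25 of its 0.27 and NDUFB8 keeps −0.29 of its −0.39.

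Of the 18 complex V genes, 17 had a difference below 0 and 1, ATP5MC2, above, while without scrambled replicate 3 there were 12 below and 6 above. ATP5MC2, ATP5MC1 and ATP5MC3 encode the same mature c subunit, of which the proton-driven ring is made, and differ in the presequence that directs import. ATP5MC2 read 9.68, 9.59 and 9.49 in the knockdown, against 9.31, 9.37 and 9.26 in scrambled cells. Every knockdown array lay above every scrambled array, and scrambled replicate 3 was the lowest of all. The difference was 0.27 ± 0.07 (SE), with a 95% interval of 0.11 to 0.44 (adjusted p = 0.0792), and 0.25 ± 0.07 (0.120) without scrambled replicate 3. ATP5MC1 read 12.33, 12.36 and 12.25 in the knockdown, against 12.28, 12.49 and 12.80 in scrambled cells, and ATP5MC3 read 6.66, 6.62 and 6.48, against 6.60, 6.75 and 6.80. Their groups overlapped, at −0.21 ± 0.12 and −0.13 ± 0.08 (SE; adjusted p = 0.410 and 0.432), and at −0.07 and −0.09 without scrambled replicate 3. The difference between the 3 genes was not tested.

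In the catalytic head of the ATP synthase, ATP5F1B, the beta subunit that makes ATP, read 12.13, 12.10 and 12.12 in the knockdown, against 12.29, 12.28 and 12.51 in scrambled cells. ATP5F1A, the alpha subunit, read 10.60, 10.64 and 10.52 in the knockdown, against 10.68, 10.78 and 11.03. Both separated the groups, with the same difference of −0.24 (SE 0.08 for ATP5F1B and 0.09 for ATP5F1A), and neither passed (adjusted p = 0.142 and 0.212). ATP5IF1, which inhibits the enzyme when it would run backwards, read 9.08, 8.98 and 9.05 in the knockdown, against 9.22, 9.18 and 9.27, and here scrambled replicate 3 lay close to its group. Its difference was −0.18 ± 0.06 (SE; adjusted p = 0.179), and −0.16 ± 0.06 without scrambled replicate 3. The 4 genes of the peripheral stalk, which holds the head in place, overlapped between groups and lay between −0.18 for ATP5PF and −0.03 for ATP5PO. ATP5MF, a small membrane subunit, differed by −0.01 ± 0.09, and by 0.08 ± 0.07 (SE) without that array.

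The 3 noncoding transcripts matched by symbol did not pass either. ATP5F1EP2, a pseudogene of the epsilon subunit, read 9.83, 9.82 and 9.84 in the knockdown, against 9.92, 10.03 and 10.07 in scrambled cells, and may share signal with its parent gene. NDUFV1-DT, a transcript that starts beside NDUFV1 and runs the other way, read 5.35, 5.24 and 5.35, against 5.18, 4.99 and 5.18. Its groups did not overlap, by 0.20 ± 0.08 (SE; adjusted p = 0.216), while NDUFV1 differed by −0.03 ± 0.07. UQCRBP1, a pseudogene of UQCRB, differed by −0.07 ± 0.09 (SE).

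Nuclear genes of the respiratory chain are known for promoters with sites of NRF1, ETS factors such as GABPA, YY1 and SP1. RefSeq promoter windows of build GRCh38.p14, from 250 bases before the start to 50 after, were matched for 66 of the 79 protein-coding members, with the first listed start of each gene. The NRF1 letters, GCGC and a second GCGC with any 2 bases between, lay in 25.8% of these windows against 8.78% of 27305 genes with a window and 12.5% of the tested genes. The ETS letters CCGGAAG lay in 28.8% against 10.7% and 14.6%, and the YY1 letters AAGATGGC in 15.2% against 3.03% and 4.08%. The SP1 letters GGGCGG lay in 59.1% against 44.6% and 60.0%. Both strands were searched, and letters of different motifs may overlap. Of the 10 members with the YY1 letters, 1 had them before the start, and the others had them across or after it. The median log2 difference was −0.12 in the 17 members with the NRF1 letters and −0.12 in the 49 without, and −0.025 and −0.031 without scrambled replicate 3. For the SP1 letters it was −0.12 in 39 members with them and −0.08 in 27 without, and −0.033 and −0.022 without that array. For ETS it was −0.10 with and −0.13 without the letters, and −0.014 and −0.042 when scrambled replicate 3 was left out. For YY1 it was −0.12 both with and without the letters, and −0.006 and −0.032 when that array was left out. None of these differences was tested. A match is a description of the letters and not of binding.

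The 250 bases before the start are shown for NDUFB8, which had the smallest p of the members. They are also shown for NDUFA9 and NDUFB10, picked because they separated the groups and held the NRF1 letters. The groups separated, lower in the knockdown, in 3 of the 17 members with the NRF1 letters and in 15 of the 49 without. That difference was not tested. Capitals mark the letters found, with NRF1 letters 80 bases before the start in NDUFA9 and 38 in NDUFB10, and SP1 letters 18 bases before it in NDUFB10 and 50 in NDUFB8. The windows are chr10:100529924-100530173 on the minus strand for NDUFB8, chr12:4648864-4649113 on the plus strand for NDUFA9 and chr16:1959288-1959537 on the plus strand for NDUFB10.
NDUFB8: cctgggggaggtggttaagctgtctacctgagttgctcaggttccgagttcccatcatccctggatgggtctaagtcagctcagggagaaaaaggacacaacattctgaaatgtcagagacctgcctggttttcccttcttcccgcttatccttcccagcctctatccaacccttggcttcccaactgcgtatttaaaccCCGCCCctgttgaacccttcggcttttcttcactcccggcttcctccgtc
NDUFA9: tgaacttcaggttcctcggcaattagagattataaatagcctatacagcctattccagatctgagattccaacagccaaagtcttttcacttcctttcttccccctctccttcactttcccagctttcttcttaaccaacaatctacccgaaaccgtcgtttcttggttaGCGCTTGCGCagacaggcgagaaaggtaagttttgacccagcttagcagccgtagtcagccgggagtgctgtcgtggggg
NDUFB10: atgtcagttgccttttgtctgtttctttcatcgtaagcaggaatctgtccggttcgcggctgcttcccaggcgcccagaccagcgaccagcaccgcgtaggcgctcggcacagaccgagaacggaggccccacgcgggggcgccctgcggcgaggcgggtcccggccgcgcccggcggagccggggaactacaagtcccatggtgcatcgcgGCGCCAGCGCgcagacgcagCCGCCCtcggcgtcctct
NDUFB8, the member with the clearest difference, held none of the NRF1, ETS or YY1 letters in its window.

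Genes around the chain were read from lists of known function, with p adjusted over all 18404 genes. Of 42 measured assembly factors, 1 fell and 41 did not pass, which is 2.38% called against 3.61% of all genes, with a median of −0.07 with 6 arrays and −0.03 without scrambled replicate 3. LYRM7, which helps to insert the Rieske iron-sulfur protein into complex III, read 7.61, 7.71 and 7.74 in the knockdown, against 8.01, 8.03 and 8.23 in scrambled cells. No array overlapped, and it fell by 0.40 ± 0.08 (SE; adjusted p = 0.0328), and by 0.33 ± 0.07 (0.0365) without scrambled replicate 3. LYRM7 passed in 8 of 12 alternatives and was lost without any 1 of the knockdown arrays or without scrambled replicate 2 (adjusted p up to 0.130). Without scrambled replicate 3, 7.14% of the assembly factors passed, against 4.12% of all genes and 6.04% of the brighter genes. Besides LYRM7, 2 others passed in that fit, and both rose. COA6, which helps to load copper into complex IV, rose by 0.35 ± 0.07 (SE; adjusted p = 0.0388). SDHAF2, which helps to attach the flavin to SDHA, rose by 0.33 ± 0.06 (0.0326). With 6 arrays COA6 and SDHAF2 differed by 0.27 ± 0.09 and 0.25 ± 0.08 and did not pass. SDHAF2 read 9.43, 9.49 and 9.51 in the knockdown, against 9.19, 9.11 and 9.38 in scrambled cells. In both genes scrambled replicate 3 was the highest of the scrambled arrays and still below every knockdown array.

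Of 19 genes of electron carriers and ubiquinone synthesis, 1 fell and 18 did not pass. That is 5.26% called, against 3.61% of all genes and 5.41% of the brighter genes. Their median was −0.15 with 6 arrays and −0.08 without scrambled replicate 3. COQ6, a monooxygenase of ubiquinone synthesis, read 7.58, 7.60 and 7.58 in the knockdown, against 7.85, 7.86 and 7.89 in scrambled cells. Both groups were tight and scrambled replicate 3 lay with its group, and COQ6 fell by 0.28 ± 0.06 (SE; adjusted p = 0.0379), or by 0.27 ± 0.06 (0.0473) without it. COQ6 passed in 6 of 12 alternatives and was lost without any 1 of the other arrays (adjusted p up to 0.149), among other settings. ETFB, a subunit of the electron transfer flavoprotein, differed by −0.26 ± 0.06 (0.0609).

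Of 12 measured mitochondrial carriers and uncoupling genes, 1 fell and 11 did not pass. That is 8.33% called, against 3.61% of all genes and 5.41% of the brighter genes. Their median was −0.11 with 6 arrays and −0.09 without scrambled replicate 3. SLC25A4, an ADP/ATP carrier that exports the ATP made by complex V, read 9.26, 9.28 and 9.25 in the knockdown, against 9.52, 9.55 and 9.63 in scrambled cells, and fell by 0.30 ± 0.06 (SE; adjusted p = 0.0361), or by 0.27 ± 0.06 (0.0476) without scrambled replicate 3. SLC25A4 passed in 7 of 12 alternatives and was lost without any 1 of the knockdown arrays or scrambled replicate 2 (adjusted p up to 0.148), among other settings. SLC25A11, the oxoglutarate and malate carrier, differed by −0.47 ± 0.11 (0.0552). Of 19 measured genes of the citric acid cycle and pyruvate entry, 17 were below 0 and none passed at an adjusted p under 0.05, with 8, or 42.1%, lower at an unadjusted p under 0.05 against 9.45% of all genes and 14.3% of the brighter genes. Without scrambled replicate 3 there were 4, or 21.1%, against 8.85% and 11.8%. Their median was −0.16 with 6 arrays and −0.09 without scrambled replicate 3. MPC1, a subunit of the pyruvate carrier, differed by −0.43 ± 0.10 (SE; adjusted p = 0.0599).

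Mitochondrial ribosomal proteins, which make the subunits encoded in mitochondrial DNA, were close to the members: 60 of 73 were below 0 with a median of −0.12, scrambled replicate 3 was the highest array for 63, and the median was −0.03 without it. None passed with 6 arrays, and 10, or 13.7%, were lower at an unadjusted p under 0.05, near the 14.3% of the brighter genes, to which 69 of the 73 belong. Without scrambled replicate 3, 1 of the 73 passed, or 1.37% against 4.12% of all genes and 6.04% of the brighter genes. This was MRPS18C, whose probe set was dimmer than the median gene, and it fell by 0.34 ± 0.07 (SE; adjusted p = 0.0479). MRPS18C read 5.50, 5.42 and 5.51 in the knockdown, against 5.73, 5.90 and 5.57 in scrambled cells, where scrambled replicate 3 was the lowest of its group. None of 20 regulators of mitochondrial biogenesis and of mitochondrial DNA expression passed or had an unadjusted p under 0.05, and their median was −0.08 with 6 arrays and −0.01 without it. POLG, the mitochondrial DNA polymerase, differed by −0.17 ± 0.10 (SE), and by −0.06 ± 0.07 without scrambled replicate 3. The 13 subunits encoded in mitochondrial DNA were not analysed here.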

How the data were processed

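Total RNA of 6 MEC-1 samples, 3 with knockdown and 3 with scrambled shRNA, was labelled with biotin and read on Affymetrix arrays. The authors deposited log2 values made with RMA, per the submitters' processing notes; the sources used here give neither its version nor its settings. RMA gives arrays near-equal distributions, so a shift of all genes cannot be seen. The number of arrays limits the precision.

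Of 32321 probe sets, 19158 carried 1 symbol, 1388 several and 11775 none in the table used here. The probe set with the highest mean was kept for each of 18404 genes. limma 3.58.1 in R 4.3.3 was fitted to all genes with eBayes, two-sided, with Benjamini-Hochberg adjustment, for all 6 arrays and again without scrambled replicate 3. On simulated arrays the fit recovered 56.5% of genes shifted by 0.5 log2 units and 95.7% of those shifted by 1. Of the calls made there, 3.42% and 4.11% were false. The simulated noise was independent between genes and had the same spread on all 6 arrays. In the data scrambled replicate 3 lay furthest from its group and read high for most members together. The simulated rates therefore need not hold for these arrays. Every member differed by less than 0.5 with 6 arrays, so a lack of calls does not show a lack of change. Alternatives covered normalisation, the probe-set rule, dim genes, the variance model, array weights, the replicate number as a block and each array left out.

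Members and lists were chosen with earlier results of these data known. Genes were named per complex by the 4 smallest p, the 2 lowest and 2 highest differences, the 2 smallest p without scrambled replicate 3 and any call, and per list by calls and the 2 smallest p. The c subunit genes, NDUFA4, ATP5IF1 and tissue isoforms were fixed by name, and other members were described after their values were seen.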

Additional observations from a re-analysis of the deposited data

How the results depend on the processing

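With 6 arrays 665 of 18404 genes passed, against 3511 with array weights, 1207 at an adjusted p under 0.1 and 165 over all deposited probe sets. Another quantile normalisation gave 754 and an intensity trend 821. The brighter genes alone, with 71 members among them, gave 796 of 9202. With 1 array left out the count lay between 152 and 759. The replicate block gave 367 genes and 0 members. Same-numbered arrays had correlations of deviations of −0.05, −0.07 and −0.03, which cannot show whether the numbers pair the samples. With the block COQ6 and SLC25A4 did not pass (adjusted p = 0.109 and 0.0990) and LYRM7 did (0.0494). Among the members 0 passed, against 1 after another quantile normalisation and 1 with an intensity trend (NDUFB8 in both). There were 3 among brighter genes and 3 at an adjusted p under 0.1 (NDUFB8, NDUFA5 and ATP5MC2 in both). With array weights 20 of the 82 members passed, 16 lower and 4 higher. Calls over all genes rose as well in that setting, to 3511 of 18404. With 1 array left out 0 to 1 members passed (NDUFB8 without scrambled replicate 1 or 3). The array weights were 0.25 for scrambled replicate 3 and 6.12 for scrambled replicate 2. The adjusted p of NDUFB8 lay between 0.00366 and 0.197 over its alternatives.

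Without scrambled replicate 3, chosen as a setting with that array's values known, 759 genes passed, against 1377 among brighter genes, 1519 with an intensity trend, 1345 at an adjusted p under 0.1, 38 over all deposited probe sets and 15 to 454 with a further array left out. Of the members 1 passed, against 0 with median-centred arrays, array weights, all single-symbol probe sets, all deposited probe sets or the replicate block, 4 among brighter genes, 3 with an intensity trend, 2 at an adjusted p under 0.1 and 0 with a further array left out. The cause of these changes was not tested.

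The median log2 difference with 1 array left out ranged from −0.16 to −0.031 over all members, −0.22 to −0.033 in complex I, −0.038 to 0.018 in complex II, −0.20 to −0.054 in complex III, −0.12 to 0.014 in complex IV and −0.13 to −0.036 in complex V. With scrambled replicate 3 and a further array left out it ranged from −0.061 to −0.013 over all members, −0.050 to −0.036 in complex I, −0.00072 to 0.017 in complex II, −0.093 to −0.00055 in complex III, −0.039 to 0.0143 in complex IV and −0.088 to 0.0020 in complex V. With 6 arrays, array weights gave −0.066 over all members, −0.065 in complex I and −0.087 in complex III. Brighter genes gave −0.062 in complex IV and −0.054 in complex V, all single-symbol probe sets −0.062 and −0.064 there, and complex IV was −0.060 as a mean, −0.051 with array weights, −0.049 with median-centred arrays and −0.039 after another quantile normalisation. Complex II lay between −0.029 and 0.021. Without scrambled replicate 3, the mean in place of the median gave −0.058 in complex I, 0.039 in complex II and −0.013 in complex IV. Brighter genes gave −0.0010 in complex III and −0.019 in complex IV, and complex IV was −0.024 over all single-symbol probe sets and −0.038 with the replicate block.

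Genes near 0 changed sign. After another quantile normalisation SDHA was 0.021, UQCRC2 0.011 and ATP5MF 0.0046. With array weights SDHA was 0.0057, UQCRC2 0.0052 and ATP5MF 0.075, and with median-centred arrays UQCRH was −0.0038. With 1 array left out, NDUFB7 ran from −0.054 to 0.16, SDHA from −0.038 to 0.018, UQCRH from −0.024 to 0.10, UQCRC2 from −0.025 to 0.00061, ATP5MF from −0.063 to 0.084, COX6A2 from −0.095 to 0.043, COX7A1 from −0.023 to 0.094 and COX7B2 from −0.16 to 0.071. The YY1 letters lay before the start in 1 member against 10 in the whole window.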
